A study of Homo sapiens with 6 samples.

Results

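Cyclin D, CDK4/6 and CDK inhibitor genes were described in Caki-1, an established line from clear cell carcinoma of the human kidney, with and without an intact VHL gene. The 10 genes, out of 60708 in the table of read counts, were chosen by symbol and comprise the D-type cyclins CCND1, CCND2 and CCND3, the kinases CDK4 and CDK6, the CIP/KIP inhibitors CDKN1A, CDKN1B and CDKN1C, and the INK4 inhibitors CDKN2A and CDKN2C. RNA from 3 VC samples (genotype WT, infected with the Lenti-CRISPR vector only) was compared with RNA from 3 VHL-KO samples (genotype VHL-knockout, infected with Lenti-CRISPR carrying an sgRNA against VHL). Knockout cells were selected with puromycin and grown as clones. Whether the 3 samples of a group came from 1 clone or from separate cultures is not stated, so p-values measure the spread between these samples, which may be technical, and a change made by VHL loss cannot be told apart from one particular to a clone. Reads counted on genes totalled 31789923, 28463579 and 34881739 in VC replicates 1 to 3 and 29139722, 22805385 and 22628246 in VHL-KO replicates 1 to 3.

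The labels were first checked against the edited gene and the cell type. VHL had 1454, 1124 and 1522 reads in the VC samples and 929, 657 and 650 in the VHL-KO samples. Its log2 fold change was -0.33 (SE 0.11, Benjamini-Hochberg adjusted p = 0.0109, edgeR's quasi-likelihood test), and the same test did not call it without VC replicate 1 (-0.28), without VHL-KO replicate 2 (-0.30), with upper quartile factors (-0.22) or with offsets for the GC content and length of transcripts (-0.11). Reads from an edited VHL transcript are counted like those of an intact one. CA9, a carbonic anhydrase gene induced by HIF, had 0, 0 and 2 reads in the VC samples and 288, 247 and 233 in the VHL-KO samples. NDRG1, another gene induced in hypoxia, went from 413, 331 and 445 reads to 19464, 16703 and 16656, and VEGFA, an angiogenic factor gene, from 870, 884 and 1001 to 3585, 3431 and 3484. Of the 7 genes listed for this check, VHL and 6 that respond to HIF, 5 were called higher in VHL-KO cells and 2 lower, VHL and EGLN3 (log2 fold change -1.26), both named after their values were seen. Among 6 kidney epithelial markers, the transcription factor gene PAX8 had between 12971 and 16327 reads in every sample. The keratin genes KRT8 and KRT18 were also abundant, whereas PAX2 had 0 reads in all 6 samples and KRT19 had between 13 and 30. EPCAM had 56, 31 and 50 reads in VC against 17, 14 and 4 in VHL-KO samples. In the same test PAX8 (log2 fold change 0.52), KRT8 (0.51), KRT18 (0.37) and KRT19 (0.96) were called higher in VHL-KO cells and EPCAM lower. With library size alone or with the offsets, 2 of the 5 tested markers were called higher in place of 4. The 9 markers of leukocytes, endothelium, stroma and hepatocytes summed to 43.5, 47.5 and 37.2 normalized counts per 1000000 (CPM) in the VC samples and 30.6, 27.9 and 26.7 in the VHL-KO samples, with the collagen gene COL1A1 the most abundant and the T cell gene CD3E at 0 reads throughout. The stromal PDGFRB had 282, 319 and 293 reads in VC against 55, 50 and 55 in VHL-KO samples, and the endothelial PECAM1 had 1, 5 and 0 against 14, 7 and 9.

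D-type cyclins bind CDK4 and CDK6 in G1 phase, and the active kinases phosphorylate the RB protein, which then releases E2F factors that transcribe genes for DNA replication. INK4 proteins bind CDK4 and CDK6 themselves, whereas CIP/KIP proteins bind cyclin-CDK complexes. In clear cell carcinoma of the kidney, where VHL is often lost, CCND1 is a known target of HIF2α, and the chromosome 9 region of CDKN2A is lost in a part of the tumors.

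VHL-KO and VC cells differed in the balance of their D-type cyclin transcripts and of their CDK4 and CDK6 transcripts. CCND1 rose 2.11-fold while CCND3 fell to a level 2.35-fold lower. CDK6 was 2.55-fold lower, and CDK4 did not pass the test. CDKN1A rose 1.77-fold and CDKN1C 1.55-fold, whereas CDKN1B and CDKN2C did not pass. With composition offsets, which take out each library's dependence on GC content and length, CDKN1C lost its call and CDK4 and CDKN2C were called lower, and the gap between CDK4 and CDK6 was smaller. CCND2 and CDKN2A had no read in any of the 6 samples.

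Of the 10 genes, 8 had at least 10 reads in any sample and entered the test over 17401 genes. Of these 8, 3 were called higher in VHL-KO cells and 2 lower at an adjusted p under 0.05, where 28.5% of all tested genes were called higher and 31.2% lower. CCND1 was at least 2-fold higher, as were 13.9% of all tested genes, and CCND3 and CDK6 were at least 2-fold lower, as were 12.3%. VC and VHL-KO values were without overlap for 6 of the 8, against 64.7% of all tested genes. The shares of calls and of genes without overlap are near those of all genes. The share at least 2-fold lower is larger than that of all genes, but it is made up of 2 genes. The count of calls is therefore no result about this group of genes, and the direction and size of each gene's change are what follows. The median log2 fold change of the 8 was -0.15, and it was -0.01 over all tested genes. In RNA from bulk cells, less transcript per cell and fewer cells with the transcript cannot be told apart.

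**Figure D1:**
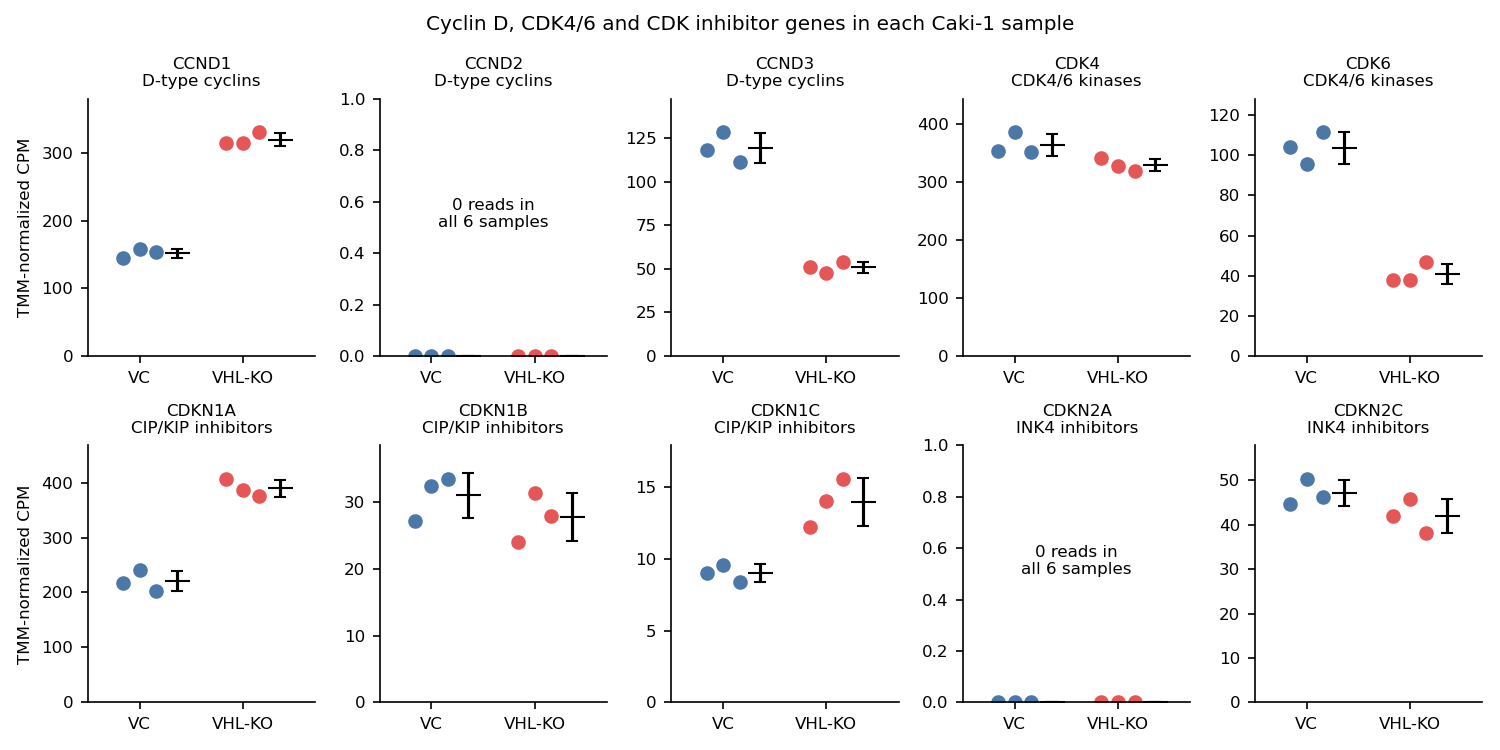
TMM-normalized CPM of the 10 genes (vertical axes, from 0) in each VC (blue) and VHL-KO (red) sample, with the mean and SD of 3 samples in black. CCND1, CDKN1A and CDKN1C lie higher in all 3 VHL-KO samples, and CCND3 and CDK6 lie lower. CDK4 also lies lower in all 3, by a small gap that was not called, and CCND2 and CDKN2A are at 0 reads.

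Promoters are shown for CCND3, CDK6 and CDKN1A, the called genes with an entry in RefSeq's promoter table, and for CDK4 beside CDK6. The table (GRCh38.p14) matched 7 of the 10 genes, and CCND1, CCND2 and CDKN1C had no entry. Each sequence runs 5′ to 3′ on the strand of its gene, from 250 bases before to 50 bases after the start nearest to the canonical one. Capitals mark ACGTG or GCGTG, the core letters of a HIF site, on either strand. The windows lie at chr6:41941759-41942058 (minus strand, CCND3), chr12:57752261-57752560 (minus strand, CDK4), chr7:92836524-92836823 (minus strand, CDK6) and chr6:36678464-36678763 (plus strand, CDKN1A).
CCND3: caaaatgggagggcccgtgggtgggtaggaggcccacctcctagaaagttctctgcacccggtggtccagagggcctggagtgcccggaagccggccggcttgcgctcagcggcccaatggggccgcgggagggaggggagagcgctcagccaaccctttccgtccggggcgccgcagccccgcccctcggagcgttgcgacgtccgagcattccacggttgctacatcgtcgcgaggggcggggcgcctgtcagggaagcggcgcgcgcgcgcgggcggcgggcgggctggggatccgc
CDK4: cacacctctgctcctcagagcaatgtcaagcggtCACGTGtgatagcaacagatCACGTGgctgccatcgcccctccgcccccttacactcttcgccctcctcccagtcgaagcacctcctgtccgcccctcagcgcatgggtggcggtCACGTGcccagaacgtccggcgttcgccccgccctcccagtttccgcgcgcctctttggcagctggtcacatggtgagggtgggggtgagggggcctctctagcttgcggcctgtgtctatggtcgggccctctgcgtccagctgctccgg
CDK6: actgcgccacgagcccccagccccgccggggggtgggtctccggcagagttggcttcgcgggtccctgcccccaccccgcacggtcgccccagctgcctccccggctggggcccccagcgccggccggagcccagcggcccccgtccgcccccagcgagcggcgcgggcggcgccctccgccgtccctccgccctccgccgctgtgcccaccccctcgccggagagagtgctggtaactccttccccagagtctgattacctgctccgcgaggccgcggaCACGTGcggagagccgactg
CDKN1A: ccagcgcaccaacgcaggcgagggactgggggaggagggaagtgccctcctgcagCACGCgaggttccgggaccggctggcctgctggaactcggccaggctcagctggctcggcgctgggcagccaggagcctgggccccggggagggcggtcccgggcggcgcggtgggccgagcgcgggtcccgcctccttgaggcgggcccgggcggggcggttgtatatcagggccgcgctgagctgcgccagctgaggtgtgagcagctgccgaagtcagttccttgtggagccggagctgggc
CDK4 had 3 marked stretches, CDK6 had 1, CDKN1A had 1 and CCND3 had 0, and of the 7 matched windows 6 had at least 1. In CDK4 and CDK6 each stretch reads CACGTG, which holds ACGTG on both strands. At least 1 of these cores was found in 48.4% of the 35116 promoters of 300 bases in the table. The E2F motifs TTTCGCGC, TTTGGCGC and TTTCCCGC, which hold no HIF core themselves, were searched on both strands and found in 0 of the 7 windows and in 2.7% of all promoters. A match is a description of letters, and a window without one says nothing about whether a factor acts on the gene.

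Among the cyclins, CCND1 encodes cyclin D1 and lies on chromosome 11 of GRCh38 from 69641156 to 69654474 on the plus strand. Of its exonic bases, 10.4% overlap LTO1 on the opposite strand. CCND1 had 4939, 4691 and 5840 reads in the VC samples and 8420, 6794 and 7054 in the VHL-KO samples. Every VHL-KO sample lay above every VC sample before and after scaling. Normalized by edgeR's TMM factors, the level was 152 ± 6.78 CPM in VC and 320.3 ± 9.13 CPM in VHL-KO cells (mean ± SD of 3 samples each), which gave a log2 fold change of 1.07 (SE 0.09, Benjamini-Hochberg adjusted p = 1.4e-10, edgeR's quasi-likelihood test).

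CCND3 encodes cyclin D3 and lies on chromosome 6 from 41934934 to 42050357 on the minus strand. Its reads numbered 4040, 3813 and 4225 in the VC samples and 1359, 1030 and 1147 in the VHL-KO samples. All 3 VHL-KO samples were low and the groups were far apart. The normalized level went from 119 ± 8.56 CPM in VC to 50.8 ± 3.03 CPM in VHL-KO cells (n = 3 each), which is a log2 fold change of -1.23 (SE 0.10, Benjamini-Hochberg adjusted p = 9.0e-11, edgeR's quasi-likelihood test). CCND2, the gene of cyclin D2 on chromosome 12 from 4269771 to 4305353, had 0 reads in every sample. Of its exonic bases, 12.5% overlap another gene on the same strand. At these depths 0 reads allow up to 3 counts, which is 0.0790 CPM in the deepest and 0.141 CPM in the shallowest library, for counting error only.

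The opposite moves of CCND1 and CCND3 changed the makeup of the D-type cyclin transcripts. For each CCND3 read there were 1.22, 1.23 and 1.38 CCND1 reads in the VC samples and 6.20, 6.60 and 6.15 in the VHL-KO samples. This ratio is taken within a library and does not depend on the scaling between libraries. Per kilobase of merged exons, CCND1 made up 59.7, 59.8 and 62.6% of the summed D-type cyclin level in the VC samples and 88.2, 88.9 and 88.2% in the VHL-KO samples. The spread within a group was small beside the gap between the groups. The summed level itself was 50.9, 55.4 and 51.6 RPKM (TMM-normalized CPM per kilobase) in VC and 75.04, 74.4 and 78.8 RPKM in VHL-KO cells. With the longest transcript as length its mean was 85.7 RPKM in VC and 96.8 RPKM in VHL-KO cells, a smaller rise. Which cyclin led in VC cells also depended on the gene length used, since with the longest transcript the mean share of CCND1 was 41.9% in VC and 78.1% in VHL-KO cells.

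**Figure D2:**
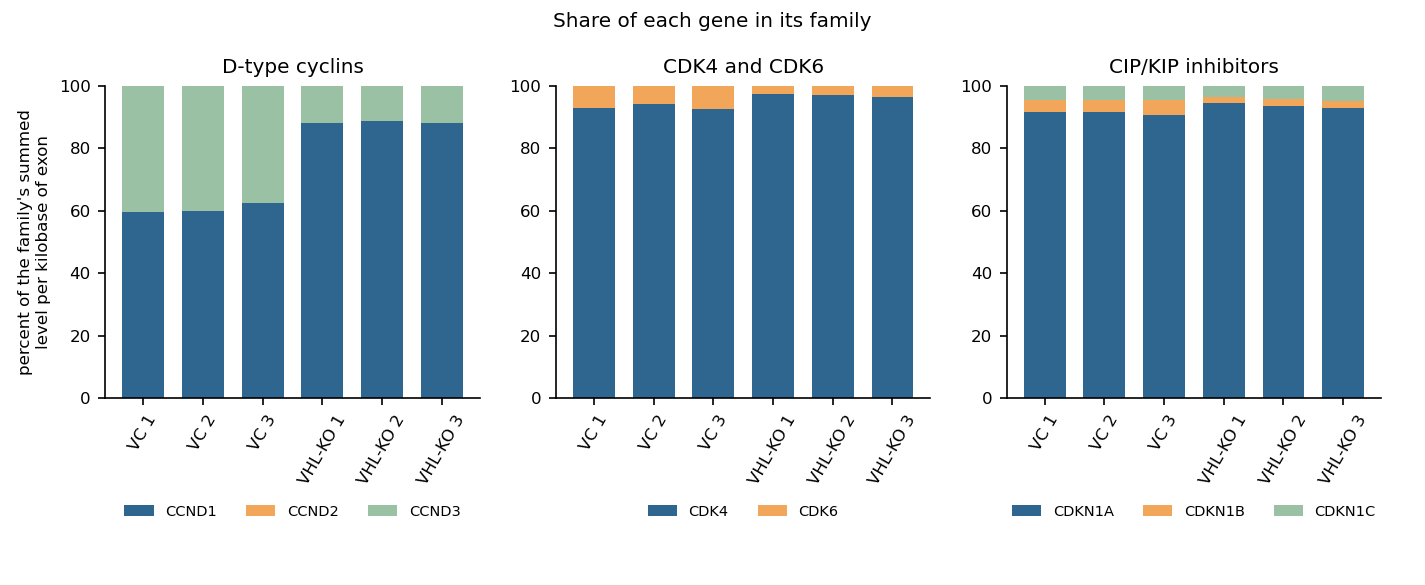
Share of each gene (bar segments, percent, from 0 to 100) in the summed level per kilobase of merged exons of its family, in each of the 6 samples. The CCND1 share averages 60.7% in the VC bars and 88.4% in the VHL-KO bars, the CDK6 share shrinks from 6.74 to 3.04% on average, and CDKN1A takes over 90% of its family in all samples.

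Of the kinases, CDK6, on chromosome 7 from 92604921 to 92836573 on the minus strand, had 3555, 2844 and 4228 reads in the VC samples and 1017, 813 and 994 in the VHL-KO samples. The VHL-KO samples were all low. The normalized level was 104 ± 7.83 CPM in VC and 40.8 ± 5.05 CPM in VHL-KO cells (n = 3 each), which is a log2 fold change of -1.35 (SE 0.11, Benjamini-Hochberg adjusted p = 8.4e-11, edgeR's quasi-likelihood test). This was the largest change among the 8 tested genes with TMM factors. With the composition offsets it was -0.88, still called but smaller than the changes of CCND3 (-1.49) and CCND1 (1.17).

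CDK4, on chromosome 12 from 57747727 to 57756013 on the minus strand, had 12099, 11474 and 13376 reads in the VC samples and 9121, 7069 and 6830 in the VHL-KO samples. After TMM scaling the groups lay close together, at 354, 386 and 352 CPM in VC and 341, 328 and 320.3 CPM in VHL-KO cells, without overlap. The log2 fold change was -0.14, with a 95% interval from -0.32 to 0.03 (Benjamini-Hochberg adjusted p = 0.15, edgeR's quasi-likelihood test). The test called CDK4 lower with library size alone (-0.34) and with the composition offsets (-0.31). Of the exonic bases of CDK4, 44.2% overlap TSPAN31 on the opposite strand. Neither the strandedness of the counting nor its treatment of shared reads is stated, so reads there may be mixed or left uncounted. TSPAN31, named for this reason after its values were seen, rose from 858, 761 and 951 reads to 1192, 1018 and 952 (log2 fold change 0.85), opposite in sign to CDK4.

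CDK4 transcripts were far more abundant than CDK6 transcripts in both groups. Within a library, CDK4 had 3.40, 4.03 and 3.16 reads for each CDK6 read in the VC samples and 8.97, 8.69 and 6.87 in the VHL-KO samples. The ranges of the groups did not overlap. With the offsets the log2 fold changes of CDK4 (-0.31) and CDK6 (-0.88) lay closer together than with TMM factors (-0.14 and -1.35), so the size of this shift depends on them. Per kilobase of merged exons, CDK6 was 6.91, 5.90 and 7.40% of the summed level of both kinases in VC and 2.74, 2.83 and 3.55% in VHL-KO cells. The summed level of both was 123, 133 and 123 RPKM in VC and 114, 109 and 107 RPKM in VHL-KO cells.

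CDKN1A encodes p21, a CIP/KIP inhibitor, and lies on chromosome 6 from 36676460 to 36687337 on the plus strand. It had 7438, 7135 and 7726 reads in the VC samples and 10861, 8332 and 8010 in the VHL-KO samples. Every VHL-KO sample exceeded every VC sample, although the VHL-KO libraries were smaller than the median VC library. The normalized level was 221 ± 18.5 CPM in VC and 390 ± 15.7 CPM in VHL-KO cells (n = 3 each), which is a log2 fold change of 0.82 (SE 0.09, Benjamini-Hochberg adjusted p = 2.4e-08, edgeR's quasi-likelihood test). With the composition offsets it was 0.47 and still called.

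CDKN1C encodes p57, an imprinted CIP/KIP inhibitor, and lies on chromosome 11 from 2883213 to 2885775 on the minus strand. Its 309, 285 and 318 reads in VC and 327, 302 and 332 reads in VHL-KO samples overlapped before scaling. Scaled, the samples separated, with 9.05, 9.59 and 8.38 CPM in VC and 12.2, 14.0 and 15.6 CPM in VHL-KO cells. The log2 fold change was 0.63 (SE 0.15, Benjamini-Hochberg adjusted p = 0.000738, edgeR's quasi-likelihood test). It was 0.05 and no longer called with the composition offsets, and the GC content of CDKN1C, 63.8%, is the highest of the 8 tested genes.

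CDKN1B encodes p27, on chromosome 12 from 12685498 to 12722369 on the plus strand. Its level was 27.1, 32.3 and 33.4 CPM in VC and 24.0, 31.2 and 27.8 CPM in VHL-KO cells, and the groups overlapped. The log2 fold change was -0.16 with a 95% interval from -0.42 to 0.09 (Benjamini-Hochberg adjusted p = 0.264, edgeR's quasi-likelihood test), but library size alone gave -0.35, which was called, and the composition offsets gave 0.22, which was not. In the summed CIP/KIP level per kilobase of merged exons, CDKN1A held 91.3 ± 0.566% in VC and 93.8 ± 0.862% in VHL-KO cells, CDKN1B held 4.16 ± 0.584% and 2.16 ± 0.324%, and CDKN1C held 4.51 ± 0.0913% and 4.07 ± 0.608% (SD, n = 3 each). The CDKN1A and CDKN1B shares did not overlap between the groups, while the CDKN1C shares did. With the offsets the log2 fold changes of CDKN1A (0.47) and CDKN1B (0.22) lay closer together, so the size of this shift depends on them.

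**Figure D3:**
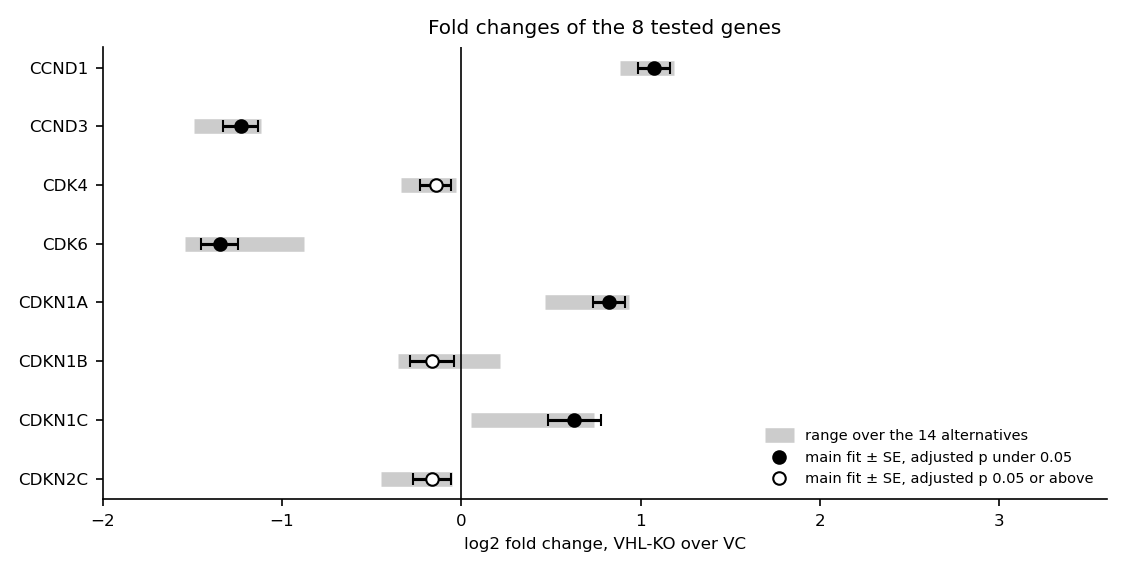
Log2 fold change of VHL-KO over VC (horizontal axis) for the 8 tested genes, with the value and SE of the edgeR fit (filled where the adjusted p is under 0.05) and the range over 14 alternative settings (grey bars). The grey bars of CCND1, CCND3, CDK6 and CDKN1A stay far from 0, those of CDKN1C, CDK4 and CDKN2C come close to 0, and that of CDKN1B crosses it.

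Of the INK4 genes, CDKN2C, which encodes p18, was read in every sample and CDKN2A, which encodes p16 and ARF, in none. CDKN2C lies on chromosome 1 from 50960745 to 50974634 on the plus strand. It had 44.6, 50.3 and 46.3 CPM in VC and 42.0, 45.7 and 38.0 CPM in VHL-KO cells, and the groups overlapped. The log2 fold change was -0.17 with a 95% interval from -0.38 to 0.05 (Benjamini-Hochberg adjusted p = 0.179, edgeR's quasi-likelihood test). CDKN2C was called lower with library size alone (-0.36) and with the composition offsets (-0.45). Of its exonic bases, 20.4% overlap a gene on the opposite strand. A further INK4 gene, CDKN2D, had between 156 and 237 reads in all samples and a log2 fold change of 0.26, which was not called and became -0.34, called lower, with the offsets.

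CDKN2A lies on chromosome 9 from 21967752 to 21995301, and its 0 reads in all 6 samples allow at most 0.0362 RPKM in the shallowest library. This limit rests on the 3885 bases of merged exons, and the longest transcript, of 1052 bases, would set it higher. CDKN2B, the next INK4 gene, whose canonical transcript starts 34.4 kb from that of CDKN2A (21974857), also had 0 reads in all 6 samples. The antisense RNA CDKN2B-AS1, whose exons overlap 15.3% of the exonic bases of CDKN2A, had 1 read in VHL-KO replicate 1, 1 in VHL-KO replicate 3 and 0 in the other samples. The 3 genes at or near 0 therefore lie side by side. MTAP, an enzyme of the methionine salvage pathway with a canonical start 172 kb to one side of that of CDKN2A, had 1664, 1302 and 2083 reads in VC against 818, 604 and 683 in VHL-KO samples. On the other side DMRTA1, 472 kb away by the same measure, had 399, 343 and 518 reads in VC against 169, 156 and 195 in VHL-KO samples. Both flanking genes were thus counted in every sample, in VC as in VHL-KO cells. Whether the DNA between them is present was not tested.

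Of the 7 tested genes among the 10 of this region, 6 fell with TMM factors, where 31.2% of all tested genes were called lower, and MLLT3 (log2 fold change 0.24) did not pass. ELAVL2 fell by 1.76, KLHL9 by 0.98, HACD4 by 0.77, DMRTA1 by 0.70, MTAP by 0.70 and FOCAD by 0.30 on the log2 scale. With the composition offsets ELAVL2 (-1.18), KLHL9 (-0.45) and MTAP (-0.18) were still called lower, and HACD4 (-0.19), DMRTA1 (-0.22) and FOCAD (-0.04) were not. MLLT3 was called higher with them (0.80), and likewise when scaled by upper quartiles (0.35) or without VC replicate 3 (0.38). FOCAD was also not called with upper quartile factors (-0.19), without VHL-KO replicate 1 (-0.26) or without VHL-KO replicate 2 (-0.26).

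**Figure D4:**
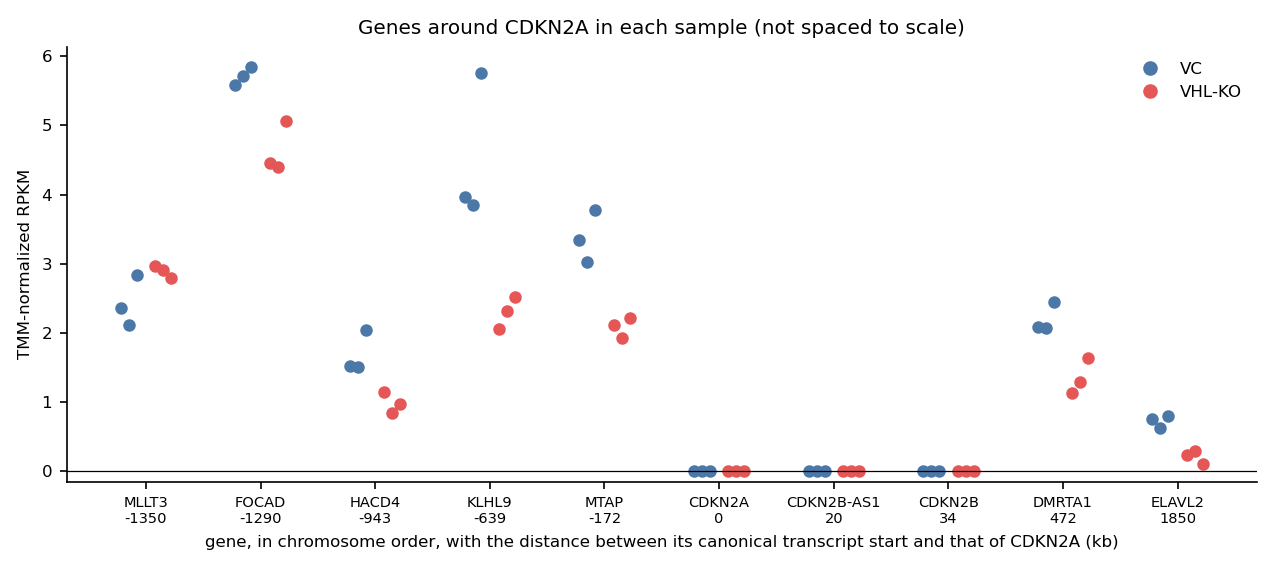
TMM-normalized RPKM (vertical axis) of 10 genes in chromosome order around CDKN2A, with the distance of each canonical transcript start from that of CDKN2A in kb, in VC (blue) and VHL-KO (red) samples. CDKN2A, CDKN2B-AS1 and CDKN2B are at or near 0 in all 6 samples, between MTAP and DMRTA1, which are not.

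Levels of different genes were set against each other per kilobase of merged exons. In VC cells the order was CDK4 (118 ± 6.14 RPKM), CDKN1A (73.6 ± 6.16), CCND1 (32.0 ± 1.42), CCND3 (20.7 ± 1.49), CDKN2C (15.6 ± 0.965), CDK6 (8.48 ± 0.640), CDKN1C (3.63 ± 0.246) and CDKN1B (3.34 ± 0.364), as mean ± SD of 3 samples. The last pair, CDKN1C and CDKN1B, differed by less than their spread. In VHL-KO cells it was CDKN1A (130 ± 5.25 RPKM), CDK4 (107 ± 3.47), CCND1 (67.3 ± 1.92), CDKN2C (13.9 ± 1.28), CCND3 (8.82 ± 0.526), CDKN1C (5.62 ± 0.672), CDK6 (3.33 ± 0.413) and CDKN1B (2.99 ± 0.391). CDKN1A thus passed CDK4, CCND3 moved below CDKN2C, and CDK6 moved below CDKN1C and next to CDKN1B, from which it differed by less than the spread. With the longest transcript as length, CDK4 stayed above CDKN1A in VHL-KO cells (177 against 172 RPKM), CCND3 stayed above CDKN2C there (21.2 against 14.4 RPKM) and CCND3 stood above CCND1 in VC cells (49.8 against 35.9 RPKM). CDKN1B then stood above CDKN1C in VC cells (7.13 against 4.65 RPKM) and above CDK6 in VHL-KO cells (6.39 against 3.50 RPKM), so these positions in the order rest on the gene model.

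Around these genes, most listed transcripts of the RB and E2F pathway were lower in VHL-KO cells. The lists were chosen with earlier results of these data known. Of 42 genes in 7 lists, from the remaining INK4 genes to E2F targets, 41 were tested, of which 34 were called lower and 1 higher, where 31.2% of all tested genes were called lower and 28.5% higher, with a median log2 fold change of -1.38 against -0.01 for all tested genes. The 6 not called were CDKN2D, E2F6, CCNA1, CCNH, AMBRA1 and FBXW7. The count of lower genes was 34 with upper quartile factors and 38 with library size alone.

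The RB family, the pocket proteins that hold E2F factors in check, fell in 3 of 3 genes, where 31.2% of all tested genes were called lower. RB1 had 865, 536 and 1245 reads in VC against 370, 261 and 346 in VHL-KO samples, a log2 fold change of -0.86 (SE 0.17), which was -0.26 and not called with the composition offsets. RBL1 had a log2 fold change of -1.38 and RBL2 of -0.83. Among 10 genes of E2F factors and their DP partners, 8 fell and 1, TFDP2, rose (log2 fold change 0.59, SE 0.10), and 7 were called lower with the offsets. E2F8, a repressor of the family, had 226, 200 and 305 reads in VC against 5, 8 and 16 in VHL-KO samples (-4.07, SE 0.30, and from -4.70 to -3.65 with 1 replicate left out). The activator E2F1 had 4241, 4013 and 4308 reads in VC against 1349, 887 and 956 in VHL-KO samples (-1.45, SE 0.10), and TFDP1, a partner of E2F factors, fell by 1.40. E2F6 (-0.23) did not pass the test, except with library size alone (-0.42).

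Further down the pathway, cyclin E and A, CDK2 and CDC25A drive the start of DNA replication. Of their 6 genes 5 fell, where 31.2% of all tested genes were called lower. CCNA2, which encodes cyclin A2, had 1453, 1168 and 1993 reads in VC against 200, 156 and 159 in VHL-KO samples (log2 fold change -2.60, SE 0.14). All VHL-KO samples were far below all VC samples. CCNE2, which encodes cyclin E2, changed by -2.56 and CDC25A, a phosphatase that activates CDK2, by -1.95. CCNA1, the sixth, had a log2 fold change of -0.31 and did not pass, but was called without VHL-KO replicate 2 (-0.52), with library size alone (-0.50) and with the composition offsets (-0.44).

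The 14 E2F target genes of DNA replication all fell, with log2 fold changes from -3.23 to -1.16 and a median of -1.76, and all 14 were called lower too when scaled by upper quartile factors, by library size alone or with the offsets. MCM10, a replication initiation factor, had 1336, 1172 and 1728 reads in VC against 94, 113 and 98 in VHL-KO samples (-3.23, SE 0.15). The groups did not overlap for any of the 14, nor for 64.7% of all tested genes. Lower calls were given to 31.2% of all tested genes. MCM4, a subunit of the replicative helicase, fell by 2.17 and CDC6, which loads that helicase, fell by 2.16 on the log2 scale.

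Lower calls were given to 2 of 3 genes of the CDK-activating kinase and 2 of 4 genes that turn over cyclins or p27. Of all tested genes, 31.2% were called lower. Of the CDK-activating kinase, CDK7 (log2 fold change -0.67) and its assembly factor MNAT1 (-0.97) fell, while CCNH (-0.24), the gene of its cyclin, did not pass. CCNH was called lower without VC replicate 2 (-0.33), without a filter on low counts (-0.28) and with library size alone (-0.44), and higher with the composition offsets (0.22). SKP2 and CKS1B, whose proteins mark p27 for degradation, changed by -1.84 and -1.31. AMBRA1 (-0.17), whose protein is a ligase adaptor for D-type cyclins, did not pass but was called with library size alone (-0.36) and with the offsets (-0.27). FBXW7 (-0.17), an adaptor for cyclin E, was not called under any of the alternatives and had a value of 0.08 with the offsets.

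**Figure D5:**
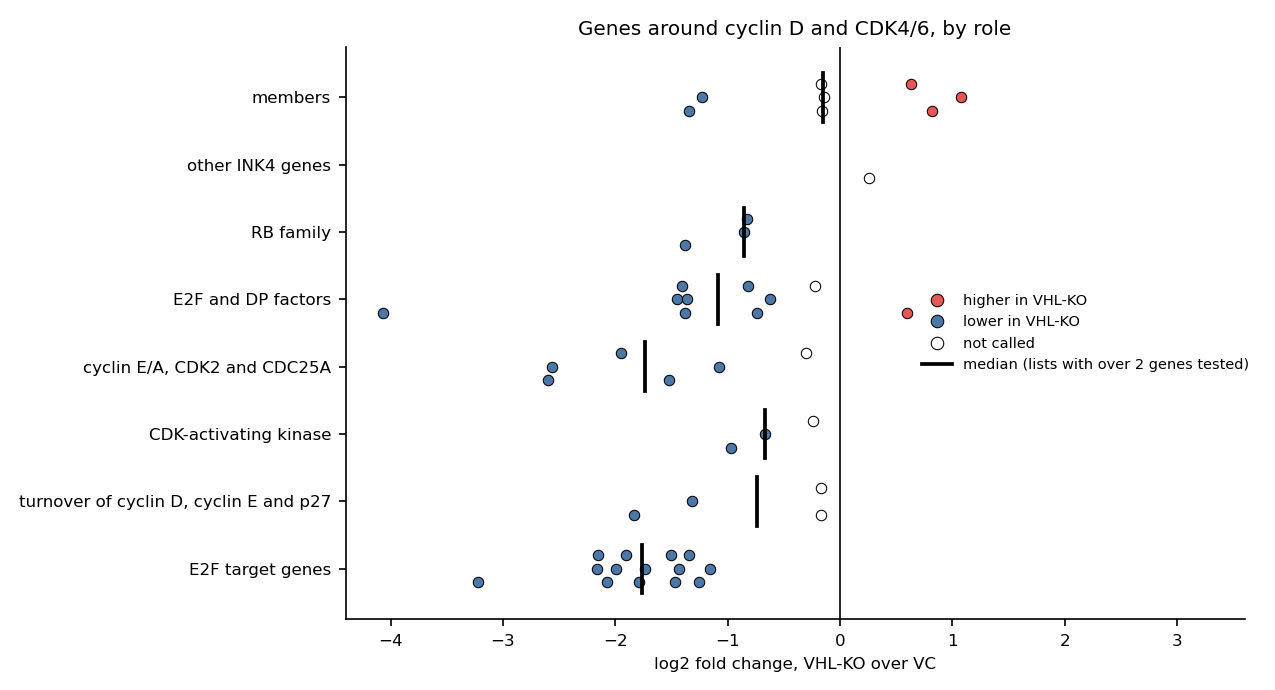
Log2 fold change of VHL-KO over VC (horizontal axis) for each tested gene, by role, with the median of a list as a black line. The cyclin D, CDK4/6 and inhibitor genes (members) lie on both sides of 0, whereas all 14 E2F target genes lie between -3.23 and -1.16.

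The genes whose normalized profile over the 6 samples was most like that of CDK6, among 10905 genes averaging 100 or more normalized counts, were PRPS1, FH and CKAP5. Likeness was the root-mean-square difference of log2 CPM centred on each gene's mean. PRPS1, an enzyme gene of nucleotide synthesis, differed by 0.027 and had 2887, 2430 and 3564 reads in VC against 835, 692 and 837 in VHL-KO samples. FH, which encodes fumarate hydratase, differed by 0.038, and CKAP5, which encodes a microtubule-binding protein, by 0.039. With only 2 groups, such likeness is chiefly a shared size of change with TMM factors, and the log2 fold changes were -1.34, -1.31 and -1.28. With the offsets they were -1.30, -0.82 and -0.98 against -0.88 for CDK6, so PRPS1 no longer shared its size.

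Base composition moved with the groups. Over genes averaging 10 or more normalized counts, the median log2 fold change was -0.53 for transcripts with a GC content under 35% and 0.60 for those of 65% or more. Of the genes that fell, CDK6 has a GC content of 39.7% and CCND3 of 56.2%. Of those that rose, CCND1 has 50.3%, CDKN1A 58.1% and CDKN1C 63.8%. CCND3 thus fell against the direction of the trend, and its log2 fold change with the offsets was -1.49, while CCND1 had 1.17. The part of base composition in these changes was not tested beyond the offsets. Scaling shifted all genes together, with a median log2 fold change of all tested genes of -0.01 with TMM factors, -0.20 with no factors beyond library size and 0.10 with upper quartile factors, and with 47.7, 35.8 and 55.0% of the called genes higher. Relative to these shifts CCND1, CCND3, CDK6 and CDKN1A kept their direction and were called in all 14 alternatives.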

How the data were processed

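RNA from 3 VC and 3 VHL-KO samples of Caki-1 cells was sequenced on an Illumina NovaSeq. The values deposited by the authors are raw counts of reads per gene. Per the submitters' notes and the study's methods, reads were trimmed with Trim Galore and Cutadapt, kept at 20 nt or longer, aligned with STAR to GRCh38.p13, kept with SAMtools where they mapped to a single place, and counted with HTSeq. Tool versions, annotation release and strandedness are not given in the sources used here.

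Differences between VHL-KO and VC were tested with edgeR 4.0.16 in R 4.3.3 (TMM factors, quasi-likelihood F test, two-sided, Benjamini-Hochberg adjustment, threshold 0.05) over the 17401 genes that reached 10 reads in any sample. Standard errors are the log2 fold change divided by the square root of F, and 95% intervals use the t distribution. RPKM are TMM-normalized CPM per kilobase of merged exons in GENCODE release 44, which matched 17355 of the tested genes. The procedure was tested on simulated data. No pair of replicates was a copy (chi-square per degree of freedom from 4.87 to 22.2). Totals lay between 22628246 and 34881739 counts.

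All members are named, with the 3 largest called changes of each other list but the cell type markers, all genes of lists of up to 4 genes and of the region of CDKN2A, and the 3 genes most like CDK6. TFDP2, E2F6, CCNA1, VHL, EGLN3 and TSPAN31 were named after the values were seen. The members and lists were chosen with earlier results of these data known. Alternatives were RLE factors, upper quartile factors, library size alone, DESeq2 1.42.0, no filter, a minimum of 10 reads in every sample, leaving out each replicate, the replicate number as a block, offsets for GC content and length (natural splines, 5 degrees of freedom) and the longest transcript as length. A further list of genes is not reported here. Figures were drawn with matplotlib.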

Additional observations from a re-analysis of the deposited data

How the results depend on the processing

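Under the 14 alternatives, CCND1, CCND3, CDK6 and CDKN1A were called in the same direction in 14 and CDKN1C in 13. With library size alone, 5 of the cyclin D, CDK4/6 and inhibitor genes were called lower in place of 2, with log2 fold changes of -0.34 for CDK4 (adjusted p = 0.000592), -0.35 for CDKN1B (0.0228) and -0.36 for CDKN2C (0.00559) (Benjamini-Hochberg, edgeR's quasi-likelihood test). Over all alternatives the adjusted p of this test, or of DESeq2's, ranged from 3.9e-05 to 0.792 for CDK4, from 0.0228 to 0.753 for CDKN1B, from 9.1e-05 to 0.691 for CDKN2C and from 7.8e-05 to 0.726 for CDKN1C.

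With the offsets for GC content and length, 4 of these genes were called lower, with CDK4 at -0.31 and CDKN2C at -0.45, CDKN1C had 0.052 and was not called, 2 RB pathway genes were called higher in place of 1, and in the region of CDKN2A 1 gene was called higher and 3 lower. The sign turned for CDKN1B (0.22), CDKN2D (-0.34), E2F6 (0.045), CCNH (0.22) and FBXW7 (0.081). The offsets also remove any biological change that follows GC content, and the cause of these differences was not tested. With upper quartile factors 1 gene of the region of CDKN2A was called higher in place of 0. With 1 replicate left out, that count was 0 to 1.

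With the longest transcript as length, RPKM in VC and VHL-KO cells were 35.9 and 75.6 for CCND1, 49.8 and 21.2 for CCND3, 195 and 177 for CDK4, 97.3 and 172 for CDKN1A, 7.13 and 6.39 for CDKN1B, and 4.65 and 7.20 for CDKN1C. Family shares were then 41.9 and 78.1% for CCND1, 4.37 and 1.94% for CDK6, 89.2 and 92.7% for CDKN1A, 6.57 and 3.45% for CDKN1B, and 4.27% for CDKN1C in VC cells.

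With the replicate number as a replicate block, 3 members were called higher and 2 lower, as without it, and 10284 genes in all were called in place of 10394. Deviations of same-numbered samples correlated by 0.063, 0.000 and 0.028, and those of differently numbered samples by -0.052 to 0.017. With 3 samples per group, such weak correlations do not settle whether the numbers pair the samples. Of the values under all alternatives, counts included, 732 were labelled the same by the rule of their kind (direction and call for a fold change, spread for a level or share, size for a count), 17 gained and 12 lost a call, 28 moved otherwise and 5 turned sign. CCND2, CDKN2A and CDKN2B, at 0 reads, cannot be compared below 3 counts at these depths.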
